A study of Mus musculus with 14 samples.

Results

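Messenger RNA of the hepatic carboxylesterase genes was examined in the liver of mice on a high-fat diet, in a series on the metabolic effects of brown adipose cells transplanted on silk scaffolds. The genes were taken as a list of 10 named members, Ces1c, Ces1d, Ces1e, Ces1f, Ces1g, Ces2a, Ces2c, Ces2e, Ces3a and Ces3b, out of 24983 genes with a count above 0. All 10 were among the 13131 genes with enough counts to be tested. The members were chosen by their names and by their measured counts in transplant against empty scaffold livers, so their values in that comparison are a description and carry no test. The transplant group (n = 6; titled iBAT 2x, condition BAT pre-adipocyte transplant) had received pre-adipocytes of the stromal fraction of brown adipose tissue that had been differentiated before transplantation. The empty scaffold group (n = 8; titled Sham-WT, condition Empty scaffold transplant) had received a scaffold without cells. Both groups were on the high-fat diet. Strain, age, time after transplantation, the meaning of 2x and whether every library is a separate animal are not stated, and p-values therefore cover only the spread among these libraries. The sample titles carry numbers of unknown meaning, which were below 100 in 3 transplant and 4 empty scaffold libraries and 100 or above in the other 3 and 4. Each transplant library held between 22898793 and 28910968 estimated counts, and each empty scaffold library between 19482580 and 28723928.

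Carboxylesterases are serine hydrolases, most of them held in the lumen of the endoplasmic reticulum, that cleave esters and amides of drugs, toxins and lipids. Hepatocytes are their main site of expression in the liver, where the Ces1 enzymes also act on stored triacylglycerol and cholesteryl ester and so touch the lipid supply for very low density lipoprotein. Rodents carry many tandem copies of these genes where humans have few, and their expression responds to xenobiotic receptors, bile acids and diet.

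The members lie in tandem arrays on chromosome 8. One array runs in the order Ces1a, Ces1b, Ces1c, Ces1d, Ces1e, Ces1f, Ces1g, Ces1h and Ces5a. The other runs Ces2a, Ces2b, Ces2c, Ces2d-ps, Ces2e, Ces2f, Ces2g, Ces2h, Ces3a, Ces3b and Ces4a. RefSeq start sites were matched for 7 of the 10 members, and the 250 bases before the start were searched on both strands for 5 motifs (coordinates of GRCm38.p6, the build of that table and not of the expression files). Ces1d, Ces1f and Ces3a were not matched. Of these sequences, 4 are printed here 5′ to 3′ on the strand of the gene. The first is Ces3b, the member with the widest difference between the groups, at chr8:105083505-105083754 (plus strand), with the letters TATAAA in capitals at positions -30 to -25 from the start. The next are Ces2a at chr8:104733753-104734002 and Ces2e at chr8:104926010-104926259 (both plus strand), of one array, where Ces2a differed between the groups and Ces2e hardly did. In both the capitals mark GAACTTTG, the minus-strand form of CAAAGTTC, which occurs in binding sites of the hepatocyte factor HNF4A. The last is Ces1c, the most abundant member, at chr8:93131284-93131533 (minus strand), where the capitals mark a run of 58 bases found unbroken in the promoter of Ces1b.
Ces3b: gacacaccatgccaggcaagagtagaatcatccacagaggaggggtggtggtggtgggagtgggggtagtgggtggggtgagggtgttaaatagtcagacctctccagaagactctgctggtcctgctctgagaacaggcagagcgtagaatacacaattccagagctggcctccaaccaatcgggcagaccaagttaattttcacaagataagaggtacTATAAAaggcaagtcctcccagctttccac
Ces2a: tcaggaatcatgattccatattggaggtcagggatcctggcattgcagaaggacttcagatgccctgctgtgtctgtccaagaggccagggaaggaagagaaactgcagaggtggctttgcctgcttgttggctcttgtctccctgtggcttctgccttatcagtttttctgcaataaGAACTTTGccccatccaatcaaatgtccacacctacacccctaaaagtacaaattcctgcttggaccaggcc
Ces2e: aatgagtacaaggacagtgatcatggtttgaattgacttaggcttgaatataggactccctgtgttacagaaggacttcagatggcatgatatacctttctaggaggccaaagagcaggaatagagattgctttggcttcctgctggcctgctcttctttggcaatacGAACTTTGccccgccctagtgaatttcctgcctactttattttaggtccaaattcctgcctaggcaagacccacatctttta
Ces1c: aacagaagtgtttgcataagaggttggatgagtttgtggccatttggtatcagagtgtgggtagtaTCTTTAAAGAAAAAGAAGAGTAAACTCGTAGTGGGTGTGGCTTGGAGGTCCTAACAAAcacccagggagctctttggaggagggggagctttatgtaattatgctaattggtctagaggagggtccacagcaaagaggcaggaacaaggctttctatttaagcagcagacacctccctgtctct

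Among 32851 mouse promoters of the same length, TATAAA was found in 12.4% and CAAAGTTC in 0.898%. The other motifs searched were TTCNNNGAA, the core of STAT5 sites, in 7.02% of promoters, CAAAGTCCA, another HNF4A form, in 0.384%, and the antioxidant response element in 2.48%. None of these last 3 occurred in the 7 member promoters. The promoters of Ces1g and Ces3b held TATAAA on one strand or the other, and those of Ces2a and Ces2e held CAAAGTTC. The longest run shared between member promoters was the 17 bases CAGAAGGACTTCAGATG of Ces2a and Ces2e. A match or its absence describes these letters in these windows only.

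Carboxylesterase messages stood higher in transplant livers for most members, and the size ran from none to about 2-fold. Ces3b stood apart from the rest, at a mean of 2.14 times the empty scaffold level and with no overlap between the groups in CPM. In TPM its groups overlapped, at 56.7 to 100.2 in transplant livers and 34.4 to 85.3 in empty scaffold livers. Ces2a, Ces1d, Ces3a and Ces1c followed at mean ratios of 1.42, 1.30, 1.28 and 1.25, while Ces2e (1.01) and Ces1g (0.956) were level. The median log2 fold change (transplant minus empty scaffold) was 0.26 over the 10 members and -0.02 over all 13131 tested genes, and 9 of 10 members were above 0 against 47.1% of all genes. On the TPM scale, where the median of all genes was itself -0.30, 2 of 10 members were above 0, and 7 of 10 were above that median. At an adjusted p under 0.05 (edgeR's quasi-likelihood test with Benjamini-Hochberg adjustment over all tested genes), 2 of 10 members were called. Both, Ces3b and Ces2a, were higher. Of all genes, 3.31% were called higher, 4.23% lower and 7.54% in either direction. The members were chosen with this comparison in view, so their calls in it, here and below, are a description and no test. Summed over the members, the level was 6466 ± 764 CPM (SD, n = 6) in transplant livers and 5201 ± 776 CPM (SD, n = 8) in empty scaffold livers. CPM is the count as a share of the scaled library. The same sum was 0.323 ± 0.0709% of all TPM in transplant livers and 0.352 ± 0.0670% in empty scaffold livers, so its direction turned with the scale. In pieces of liver, fewer cells of a type and less RNA per cell cannot be told apart.

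**Figure D1:**
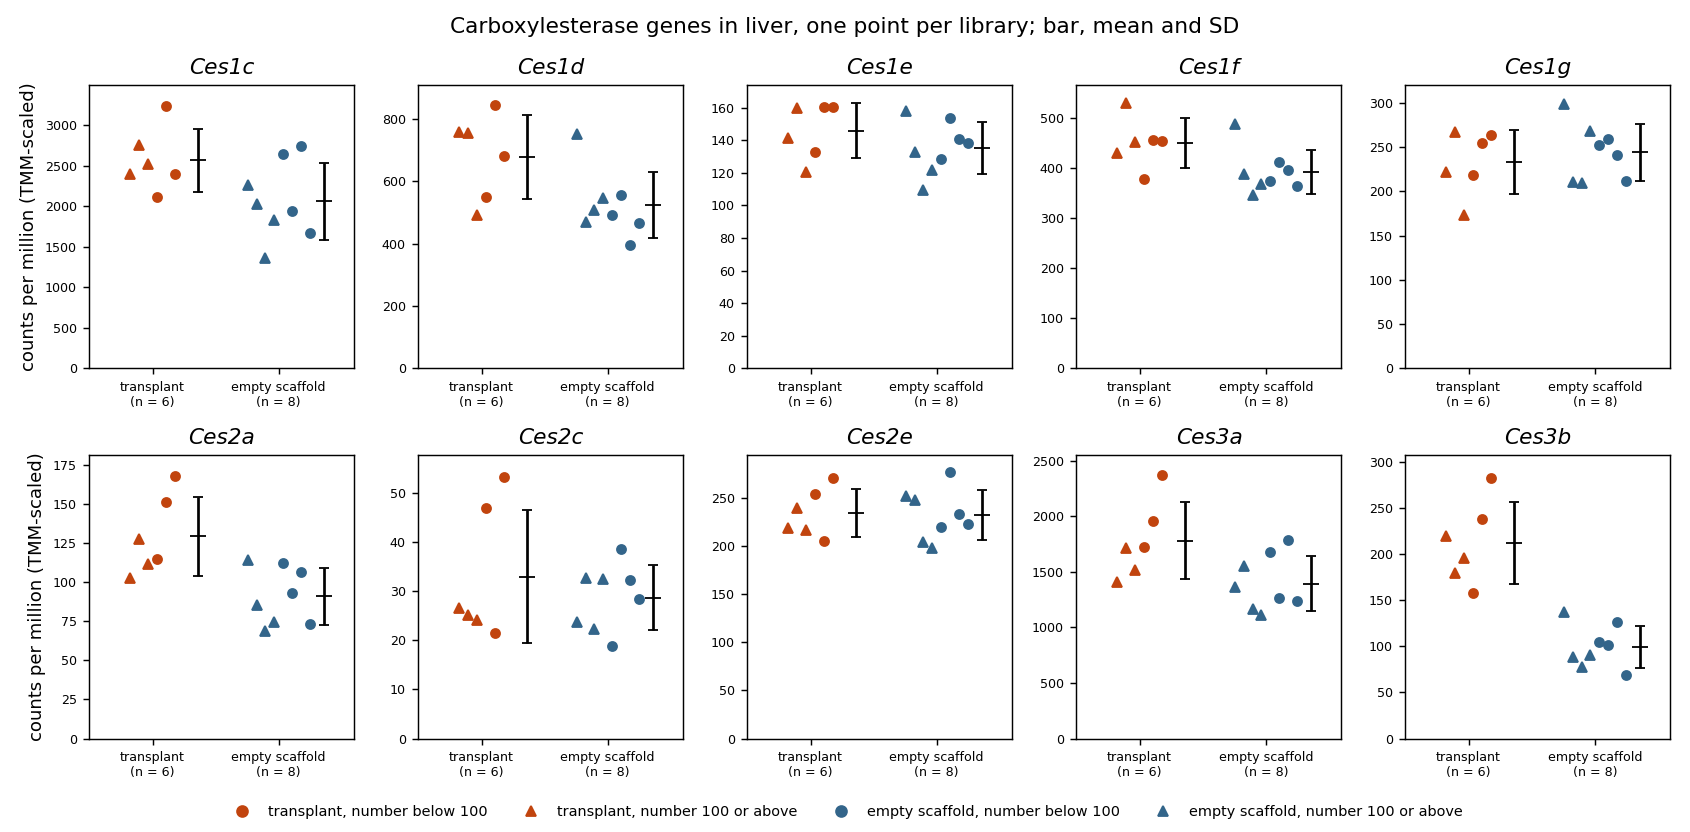
Level of each of the 10 carboxylesterase genes in CPM (linear axis from 0), 1 point per library, with bars for the mean and SD of the 6 transplant and 8 empty scaffold libraries; triangles are libraries with title numbers of 100 or above, circles those below. Ces3b separates the groups in CPM, with 158 to 282 CPM in transplant livers and 69.0 to 137 CPM in empty scaffold livers, and the other 9 overlap. On the TPM scale Ces3b overlaps too, and 8 of the 10 have a log2 fold change below 0.

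The Ces1 members were the bulk of the family, at a summed 4076 ± 551 CPM in transplant livers and 3355 ± 529 CPM in empty scaffold livers. Ces1c (ENSMUSG00000057400) encodes the carboxylesterase that mouse liver secretes into plasma. Its lowest, median and highest levels were 2110.2, 2460.1 and 3237 CPM in transplant livers, and 1361, 1987 and 2741 CPM in empty scaffold livers. The groups overlapped broadly, with 2 transplant libraries above the highest empty scaffold library and 5 empty scaffold libraries below the lowest transplant one. Its log2 fold change was 0.32 ± 0.15 (SE).

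Ces1d (ENSMUSG00000056973), the triacylglycerol hydrolase of the endoplasmic reticulum that mobilises stored lipid for secretion, had a lowest, median and highest level of 491, 718 and 844 CPM in transplant livers, against 395, 501 and 753 CPM in empty scaffold livers. Transplant libraries 1, 2 and 5 were above every empty scaffold library, and empty scaffold library 1, at 753 CPM, reached the transplant values. The log2 fold change was 0.38 ± 0.15, and 0.47 without that library. Ces1f (ENSMUSG00000031725), a close relative of Ces1d with lipid hydrolase activity, ranged over 378, 452 and 529 CPM in transplant livers and 346, 381 and 487 CPM in empty scaffold livers. Here 1 transplant library exceeded all of the empty scaffold libraries, and the log2 fold change was 0.20 ± 0.10.

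Ces1e (ENSMUSG00000061959) encodes egasyn, which retains beta-glucuronidase in the endoplasmic reticulum. It had 121, 151 and 161 CPM in transplant livers and 109.7, 135 and 158 CPM in empty scaffold livers, nearly the same span. Its log2 fold change was 0.11 ± 0.10. Ces1g (ENSMUSG00000057074), a lipid hydrolase whose loss in mice raises plasma and liver lipids, had 173, 238 and 267 CPM in transplant livers and 209.98, 247 and 299 CPM in empty scaffold livers. No transplant library was above the empty scaffold range, and Ces1g was the member with a log2 fold change below 0, at -0.07 ± 0.11. As a share of the members' summed CPM, Ces1g made up 3.60 ± 0.364% in transplant livers and 4.74 ± 0.656% in empty scaffold livers, while Ces1c made up 39.7 ± 3.65% in transplant livers and 39.2 ± 3.51% in empty scaffold livers.

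The Ces2 members, relatives of the human intestinal and hepatic esterase CES2, summed to 397 ± 53.2 CPM in transplant livers and 352 ± 40.4 CPM in empty scaffold livers. Ces2a (ENSMUSG00000055730), whose product hydrolyses acylglycerols, carried most of that difference. Its levels were 103, 121 and 168 CPM (lowest, median, highest) in transplant livers and 69.1, 89.5 and 114.6 CPM in empty scaffold livers. With 4 transplant libraries above all empty scaffold libraries and 5 empty scaffold libraries below all transplant ones, the groups met only in their margins. The log2 fold change was 0.51 ± 0.14. That call was lost with offsets from effective lengths (0.45), on the TPM scale (0.06) and in each number range alone. It was also lost without any one of transplant replicates 1, 2, 3, 5 and 6 or empty scaffold replicates 2, 3, 4 and 8, at fold changes of 0.42 to 0.56.

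Ces2c (ENSMUSG00000061825), an acylglycerol hydrolase made in intestine as well as in liver, was the least abundant member and the most uneven. It had 21.5, 25.9 and 53.3 CPM in transplant livers and 18.9, 30.3 and 38.6 CPM in empty scaffold livers. Transplant libraries 4 and 6, at 47.0 and 53.3 CPM, stood above all the others, and the remaining 4 transplant libraries lay at 21.5 to 26.6 CPM, below the empty scaffold median. The log2 fold change was 0.20 ± 0.21, from 0.01 to 0.30 when 1 library was left out. It was 0.46 below 100 in title number and -0.14 from 100 upwards. Ces2e (ENSMUSG00000031886) had 206, 229 and 271 CPM in transplant livers and 199, 229 and 277 CPM in empty scaffold livers. Its medians coincided and its log2 fold change was 0.01 ± 0.10.

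The Ces3 members are liver carboxylesterases encoded side by side. They summed to 1992 ± 376 CPM in transplant livers and 1493 ± 261 CPM in empty scaffold livers. Ces3a (ENSMUSG00000069922) had 1406, 1719.9 and 2367 CPM in transplant livers and 1115, 1314 and 1783 CPM in empty scaffold livers. The groups overlapped, with 2 transplant libraries above the highest empty scaffold library, and the log2 fold change was 0.35 ± 0.14. It was called in 1 of the 14 fits that each left out 1 library, that without empty scaffold replicate 7, at 0.41.

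Ces3b (ENSMUSG00000062181) was the one member whose groups did not overlap in CPM, though they did in TPM. No overlap in CPM held for 0.571% of all tested genes with transplant higher and 0.701% with transplant lower. In the 6 transplant libraries it had 219.5, 178.9, 196, 158, 238 and 282 CPM, against 137, 88.5, 77.6, 90.2, 104, 101, 126 and 69.0 CPM in the 8 empty scaffold libraries. The lowest transplant library was above the highest empty scaffold library by a small margin, 158 against 137 CPM. Its mean was 212 ± 44.6 CPM in transplant livers and 99.3 ± 23.1 CPM in empty scaffold livers, a log2 fold change of 1.09 ± 0.16. The fold change was 1.17 among libraries numbered below 100 (226 ± 63.0 CPM in 3 transplant libraries, 100.3 ± 23.6 CPM in 4 empty scaffold libraries) and 1.01 among those numbered 100 or above (198 ± 20.4 CPM and 98.3 ± 26.2 CPM). Leaving out 1 library gave values from 0.99 to 1.17, and the TPM scale gave 0.67. The call of Ces3b was lost in libraries numbered below 100 alone, where 3 of all tested genes were called.

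Relative to its neighbour, Ces3b stood at 12.0 ± 2.22% of the Ces3a CPM in transplant livers and 7.18 ± 1.48% in empty scaffold livers. The ratio ran from 9.12% to 15.6% in transplant livers and from 5.58% to 10.00% in empty scaffold livers, so that transplant library 4 alone fell within the empty scaffold range. In the summed CPM of the members, Ces3b made up 3.27 ± 0.517% in transplant livers and 1.90 ± 0.244% in empty scaffold livers.

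**Figure D2:**
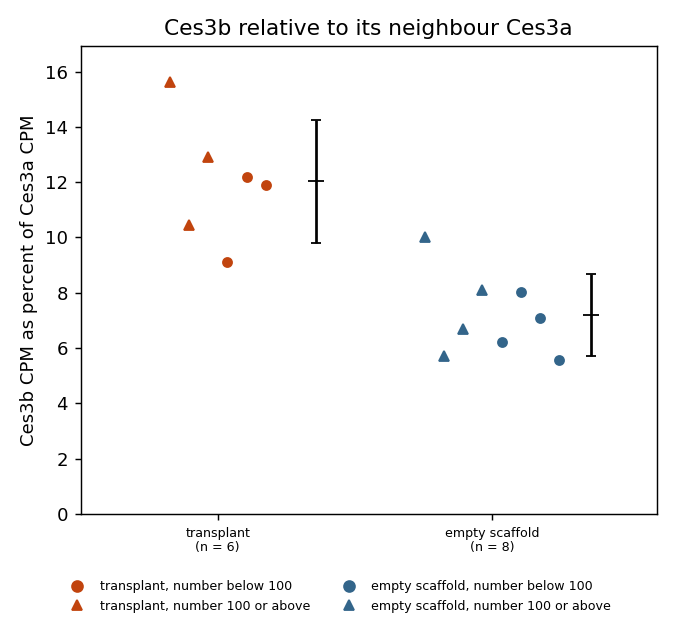
Ces3b CPM as a percent of Ces3a CPM in each library (linear axis from 0), with the mean and SD of 6 transplant and 8 empty scaffold libraries. The transplant libraries lie at 9.12% to 15.6% and the empty scaffold libraries at 5.58% to 10.00%.

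Sequence sharing bears on how reads were split between copies. Of all runs of 31 bases in the leading transcript of Ces3b, 63.9% occurred in no other listed gene and 36.1% occurred also in Ces3a. For Ces3a, 57.4% were its own and 42.6% were shared with Ces3b. With reads of the pair added together, the log2 ratio of mean CPM was 0.42. Ces3a, at a mean of 1781 CPM in transplant and 1394 CPM in empty scaffold livers, dominates that sum. The sum therefore cannot show how reads were split between Ces3a and Ces3b. Ces1c held 73.4% runs of its own and shared 21.3% with Ces1b, and Ces2a held 70.4% and shared 21.0% with the predicted gene Gm7208, which itself reached 0.124 CPM at most. With these partners added, the log2 ratios of mean CPM were 0.32 and 0.51. Ces1b averaged 85.3 CPM in transplant and 58.0 CPM in empty scaffold livers, far below Ces1c. Beside Ces1c and Ces2a the partners were too low to move these sums, which therefore do not test how reads were split. Ces2c had 72.6% of its own, Ces2e 88.5%, and Ces1d, Ces1e, Ces1f and Ces1g from 91.3% to 95.1%.

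Each member was carried mainly by a single transcript, the same one in both groups. The leading Ces3b transcript (ENSMUST00000093221, 2403 bases) held 85.1% of the gene's estimated counts in transplant livers and 84.9% in empty scaffold livers. Its second coding transcript (ENSMUST00000074403, 1907 bases) held 13.6% in transplant livers and 14.3% in empty scaffold livers. The leading transcript of Ces3a held 83.03% in transplant and 82.2% in empty scaffold livers, that of Ces2e 89.99% in transplant and 88.8% in empty scaffold livers, and that of Ces1e 78.1% in transplant and 75.4% in empty scaffold livers. In Ces2a the coding transcript ENSMUST00000164182 (1850 bases) held 3.74% (2.00% to 5.32%) in transplant livers and 2.31% (1.595% to 3.66%) in empty scaffold livers, overlapping ranges. In Ces1c, Ces1d, Ces1f, Ces1g and Ces2c the leading transcript held 99.0% or more in both groups.

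Set side by side, the fold changes of Ces3b, Ces2a, Ces3a, Ces1d, Ces1c, Ces1f and Ces1e were above 0 in both ranges of title numbers. Those of Ces1g, Ces2c and Ces2e had different signs in the ranges.

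**Figure D3:**
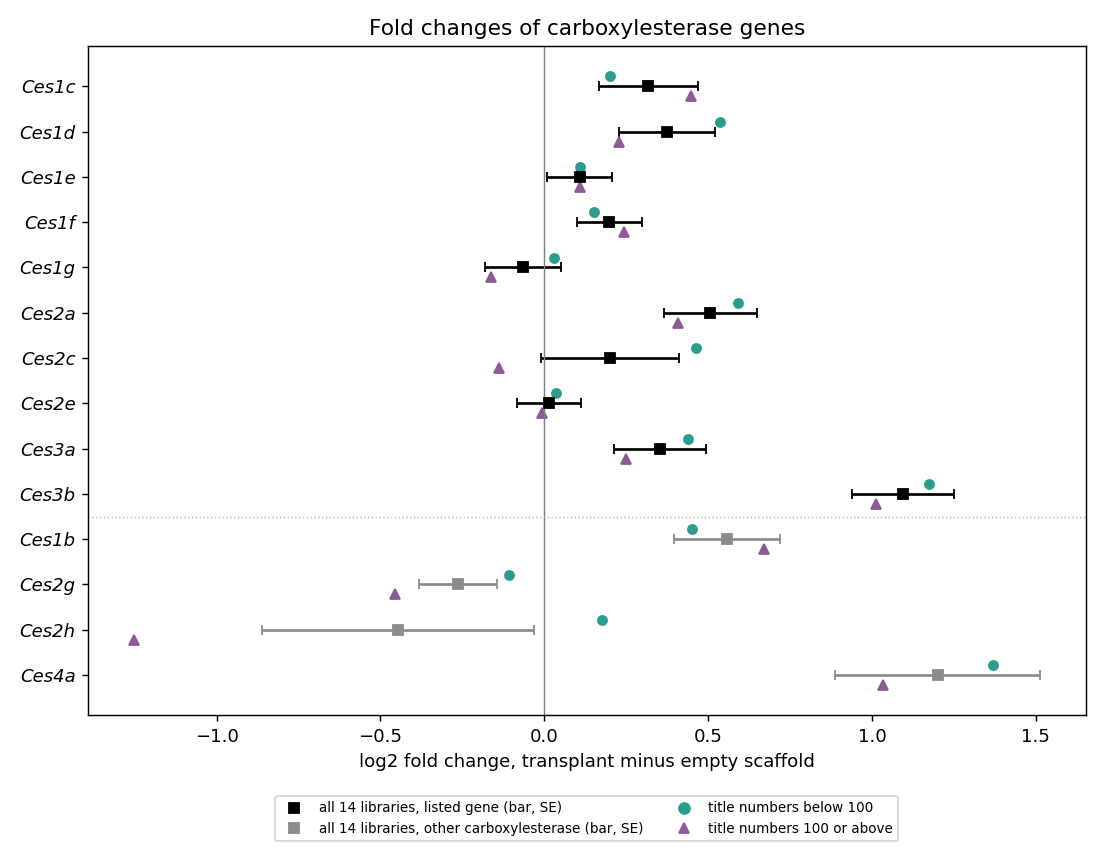
Log2 fold change (transplant minus empty scaffold, counts scaled by TMM) of the 10 listed genes and of 4 other carboxylesterases, with squares and SE bars for all 14 libraries, circles for title numbers below 100 and triangles for 100 or above. Ces3b lies at 1.17 and 1.01 and Ces2a at 0.59 and 0.41 in the ranges, while Ces2c lies at 0.46 and -0.14; on the TPM scale Ces2a stands at 0.06 and 8 of the 10 listed genes are below 0.

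The number ranges were not part of how the members were chosen, so the contrast between them was tested. Comparing libraries numbered 100 or above with those below 100, adjusted for group, 23.4% of all genes were called by edgeR's quasi-likelihood test and 0 of the 10 members were. Ces3a alone had an unadjusted p under 0.05 in that test, with a log2 difference of -0.28 ± 0.12 (adjusted p = 0.0979, edgeR). Ces3a had 1545 ± 155 CPM in 3 transplant and 1299 ± 201 CPM in 4 empty scaffold libraries numbered 100 or above, and 2016 ± 324 CPM in 3 transplant and 1489 ± 281 CPM in 4 empty scaffold libraries below 100. The difference was -0.34 ± 0.20 for Ces2c (adjusted p = 0.232) and -0.24 ± 0.13 for Ces2a (adjusted p = 0.180) in the same test. A difference of the transplant effect between the ranges was called for 0 of 10 members and for 0% of all genes. At an unadjusted p under 0.05, the same edgeR test picked 0 members and 17.3% of all genes. The largest was that of Ces2c, at -0.60 ± 0.40 (adjusted p = 0.455, edgeR's quasi-likelihood test). The slope of gene level on transcript length also differed between libraries. It was -0.275 to 0.0325 in transplant and 0.194 to 0.242 in empty scaffold libraries numbered 100 or above, and -0.167 to -0.0919 in transplant and -0.123 to -0.00359 in empty scaffold libraries below 100. Once trends with length and GC content were taken out, Ces3b stood at 1.14 and Ces2a at 0.51. Inside each range the transplant and empty scaffold numbers form separate blocks, so what follows the numbers and what follows the transplant cannot be told apart there.

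Per length, the members spanned a wide range of levels in liver. Ces1c led, at 1391 ± 388 TPM in transplant livers and 1478 ± 298 TPM in empty scaffold livers. Ces3a followed at 828 ± 153 TPM in transplant livers and 880.2 ± 152 TPM in empty scaffold livers. Ces1d (333 ± 82.6 TPM in transplant, 360.5 ± 125 TPM in empty scaffold) and Ces1f (247 ± 71.7 TPM in transplant, 293 ± 71.3 TPM in empty scaffold) came next. The Ces1c level was above that of Ces3a, and Ces3a above Ces1d, in all 14 libraries, and Ces1d was above Ces1f in 12. In the middle stood Ces2e (109 ± 23.4 TPM in transplant, 147 ± 31.2 TPM in empty scaffold), Ces1g (92.2 ± 22.4 TPM in transplant, 132 ± 34.8 TPM in empty scaffold) and Ces1e (71.3 ± 18.4 TPM in transplant, 91.2 ± 20.5 TPM in empty scaffold). Ces2e was above Ces1g in 11 libraries and Ces1g above Ces1e in 14. Ces3b ranked 7th in transplant livers, at 86.0 ± 16.1 TPM, and 9th in empty scaffold livers, at 54.3 ± 14.9 TPM. Ces1e was above Ces3b in 9 libraries and Ces3b above Ces2a in 6. Ces1e, Ces3b and Ces2a therefore had no fixed order. Ces2a had 62.3 ± 14.05 TPM in transplant and 59.8 ± 13.8 TPM in empty scaffold livers. Ces2c was last in all 14 libraries, at 15.4 ± 4.83 TPM in transplant and 18.8 ± 5.48 TPM in empty scaffold livers. Relative to the median shift of all genes on the log2(TPM + 1) scale, Ces3b stood at 0.97, Ces2a at 0.36, Ces1d at 0.23, Ces3a at 0.21 and Ces1c at 0.19. Ces1g, Ces2e and Ces1e stood at -0.20, -0.13 and -0.05 on that scale.

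**Figure D4:**
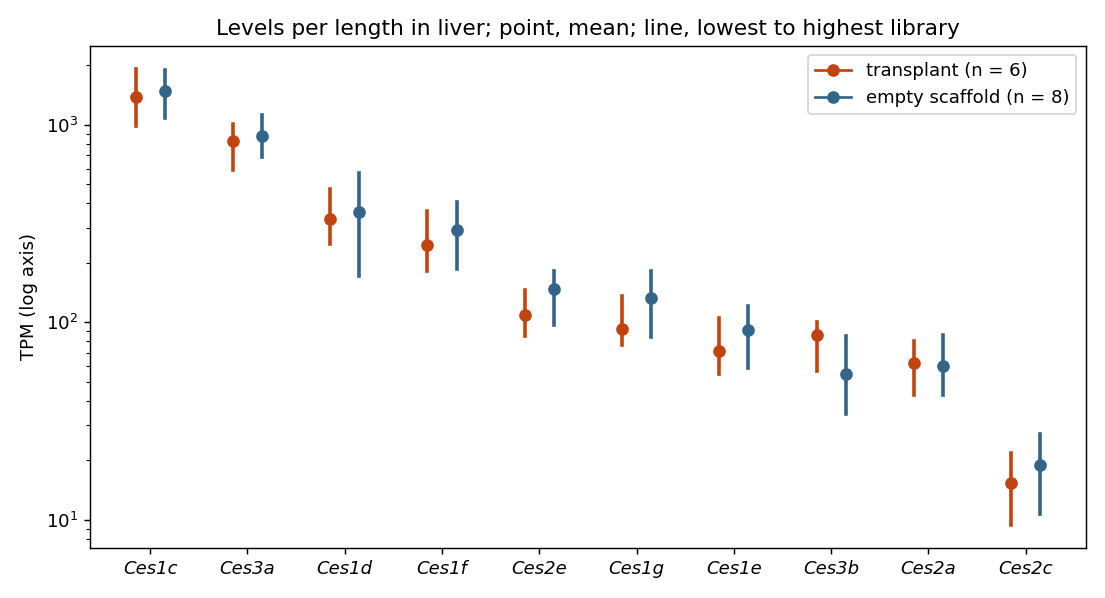
Level per transcript length (TPM, log axis) of the 10 genes, ordered by the mean over all 14 libraries, with points for the mean and lines from the lowest to the highest library of 6 transplant and 8 empty scaffold livers. Ces1c and Ces3a lead in both groups, and Ces3b at 86.0 TPM in transplant livers and 54.3 TPM in empty scaffold livers is the gene whose place in the order moves most.

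Variation between libraries of the same group was shared among several members. With group means subtracted from log2 CPM, 41 of 45 pairs of members had a Pearson correlation above 0 over 14 libraries, with a median of 0.45. For pairs of genes outside the family the share was 51.2% and the median 0.02. Within both number ranges (7 libraries each) 32 pairs of members were above 0, a count not taken for genes outside the family. By a permutation test within groups (two-sided, 100000 permutations, Benjamini-Hochberg over 45 pairs), 5 pairs passed on Pearson's r and 2 on Spearman's rho, Ces2a with Ces3a and Ces1e with Ces1f. The 5 had r of 0.74 or more, a value that 7.43% of pairs of the 6964 genes outside the family with at least 10 CPM reached. The closest were Ces2a and Ces3a (r = 0.83, permutation p = 0.000930, adjusted p = 0.0333; rho = 0.85, permutation p = 0.000840, adjusted p = 0.0378). This pair had r = 0.87 among libraries numbered below 100, 0.66 among the others, and 0.87 without the 2 libraries farthest from the median of Ces2a. Ces2a and Ces3b followed (r = 0.81, permutation p = 0.00148, adjusted p = 0.0333; rho = 0.75, permutation p = 0.00441, adjusted p = 0.0586), with r = 0.94 and 0.72 in the ranges and 0.70 without the 2 farthest libraries. Ces1e and Ces1f had rho = 0.79 (permutation p = 0.00187, adjusted p = 0.0421) and r = 0.70 (permutation p = 0.00756, adjusted p = 0.0567), with r = 0.92 and 0.88 in the ranges. Ces1d and Ces1g, which share the Ces1 array, had r = 0.75 and rho = 0.71 (permutation p = 0.00318 and 0.00895, adjusted p = 0.0358 and 0.0586), and 0.52 without the 2 farthest libraries. The neighbours Ces3a and Ces3b, whose reads overlap in sequence, had r = 0.56 and rho = 0.51. Ces2c went its own way, with r from -0.30 against Ces1c to 0.66 against Ces2e, and that last value was 0.91 in libraries numbered below 100 and near 0 in the others. All members of a library share its depth and its slope on transcript length. The permutations also moved libraries between number ranges, so a shift shared by a range enters r and its p-value.

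**Figure D5:**
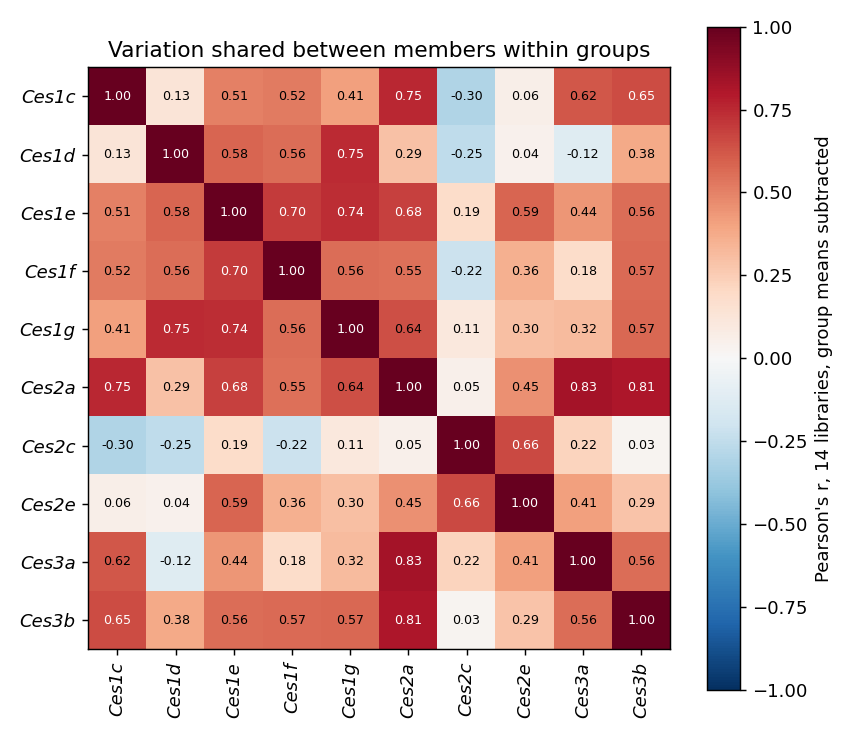
Pearson correlation of log2 CPM between the 10 members over 14 libraries after the mean of each group was subtracted (colour from -1 to 1, value in each cell). Ces2a with Ces3a (0.83) and with Ces3b (0.81) are the highest cells, and the row of Ces2c holds the lowest, -0.30 with Ces1c.

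Of 6964 genes outside the family with at least 10 CPM, the one whose levels followed each member most closely was named as a description, with group means subtracted, over 14 libraries. Ces1c was most like Hpd, an enzyme of tyrosine breakdown, at r = 0.95 and rho = 0.95. Ces3b and Ces2a were both most like Yipf3, a Golgi membrane protein, at r = 0.90 and 0.88 (rho = 0.84 and 0.89). Ces3a was most like Cyp2c23 (r = 0.88, rho = 0.88), a cytochrome P450, and Ces1g was most like Dgat2, which makes triacylglycerol, at r = 0.87 and rho = 0.88. The others were Vdac1 for Ces1e (0.86, rho = 0.84), Adgra3 for Ces1f (0.83, rho = 0.64), Cnn3 for Ces1d (0.82, rho = 0.77), Rhbg for Ces2c (0.81, rho = 0.78) and Txnl4b for Ces2e (0.77, rho = 0.82). These are the highest of many values and carry no test.

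The remaining carboxylesterases of the arrays were mostly near silent in liver. Of 10 listed, 9 were found and 4 were tested, with 2 called higher and 0 lower by edgeR's quasi-likelihood test. Ces1b, the neighbour of Ces1c, had 63.4, 85.4 and 112 CPM (lowest, median, highest) in transplant livers and 37.3, 56.6 and 81.1 CPM in empty scaffold livers. Its groups overlapped, with 3 transplant libraries above all empty scaffold ones, and it rose by a log2 fold change of 0.56 ± 0.16 (adjusted p = 0.0463, edgeR's quasi-likelihood test). Ces4a, which lies next to Ces3b, was low, at 0.571, 1.41 and 2.02 CPM in transplant livers and 0.310, 0.651 and 1.053 CPM in empty scaffold livers. It rose by 1.20 ± 0.31 (adjusted p = 0.0353, edgeR's quasi-likelihood test), with 5 of 6 transplant libraries above the empty scaffold range. Without 1 library the call of Ces1b was lost in 11 of 14 fits, at 0.46 to 0.60 (all but transplant replicate 4 and empty scaffold replicates 5 and 7). That of Ces4a was lost in 7 (transplant replicates 1, 3, 5 and 6 and empty scaffold replicates 2, 4 and 8), at 1.07 to 1.24. Both calls were also lost with effective length offsets, in libraries numbered below 100 alone and on the TPM scale, where Ces1b stood at 0.12 and Ces4a at 0.20. That of Ces1b was lost with length and GC trends taken out (0.54), and that of Ces4a in libraries numbered 100 or above alone (1.03). Ces2g had 40.0 ± 7.99 CPM in transplant livers and 48.1 ± 5.10 CPM in empty scaffold livers (-0.26 ± 0.12, adjusted p = 0.147, edgeR). It was called lower once the number range entered the model (-0.28, adjusted p = 0.0413, edgeR) and in libraries numbered 100 or above alone (-0.46, adjusted p = 0.0197, edgeR). On the TPM scale, where the median of all genes was -0.30, Ces2g was also called lower (-0.68, adjusted p = 0.0183, limma). It was not called in libraries numbered below 100 alone (-0.11) or with length and GC trends taken out (-0.15). Without 1 library it was called in 0 of 14 fits. Ces2h stood at -0.45 ± 0.41. Ces1a, Ces1h, Ces2b, Ces2f and Ces5a, each at most 0.215 CPM on average in either group, were too low to test, and Ces2d-ps was not analysed here.

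Other enzymes of ester and lipid hydrolysis, among them Aadac, Lipc, Pnpla2, Mgll and the paraoxonases, held no call over all 14 libraries: 0 of 27 tested genes in either direction by edgeR's quasi-likelihood test, with a median log2 fold change of 0.08. At an unadjusted p under 0.05 there were 9 higher and 2 lower, and DESeq2 called 7. The count depended on the setting, at 9 with the number range as a covariate, 6 in libraries numbered 100 or above, 5 on the TPM scale, 6 without empty scaffold replicate 7, 4 without empty scaffold replicate 5, and 1 without transplant replicate 2 or empty scaffold replicate 1 or 6. Of 22 genes of very low density lipoprotein assembly and secretion, 1 was higher and 0 lower, with a median of 0.15 (2 called without transplant replicate 6 or empty scaffold replicate 1 or 6, and 3 without empty scaffold replicate 7). At an unadjusted p under 0.05 by edgeR 5 were higher and 0 lower, DESeq2 called 3, and across settings the count ran from 0 to 6. The gene called over all 14 libraries was Sar1b, the small GTPase of COPII vesicles needed for export of large lipoprotein particles. It had 194, 228 and 325 CPM (lowest, median, highest) in transplant livers and 143, 158 and 193 CPM in empty scaffold livers, a log2 fold change of 0.56 ± 0.11 (adjusted p = 0.0164, edgeR's quasi-likelihood test). The ranges touched without overlap. Taking out the trends with length and GC content left 0.27 and no call (adjusted p = 0.0536, edgeR), and the TPM scale gave 0.08. In libraries numbered below 100 it was 0.28 and not called.

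Of 25 tested regulators, which cover nuclear receptors of xenobiotic and bile acid sensing, hepatocyte transcription factors and growth hormone signalling, 2 were higher and 0 lower, with a median of -0.06. At an unadjusted p under 0.05 by edgeR 5 were higher and 2 lower, and DESeq2 called 5. Across settings the count of regulators called ran from 0 to 6. Onecut1, the hepatocyte factor HNF6, had 4.07, 15.6 and 25.3 CPM in transplant livers and 2.81, 5.30 and 10.5 CPM in empty scaffold livers. Its groups overlapped at the low end, and it rose by 1.34 ± 0.39 (adjusted p = 0.0487, edgeR's quasi-likelihood test). Onecut1 was also higher in libraries numbered 100 or above than in those below, by 1.15 (adjusted p = 0.0109, edgeR's quasi-likelihood test). Foxa3, a forkhead factor of hepatocytes, averaged 50.5 ± 9.34 CPM in transplant livers and 35.6 ± 8.38 CPM in empty scaffold livers (0.50 ± 0.15, adjusted p = 0.0497, edgeR's quasi-likelihood test). Without 1 library Onecut1 was called in 3 of 14 fits (those without transplant replicates 4 or 6 or empty scaffold replicate 1) and Foxa3 in 4 (those without transplant replicates 4 or 6 or empty scaffold replicates 2 or 7), at 1.12 to 1.44 and 0.44 to 0.53 where the call was lost. Both calls were also lost without a filter on low counts, with effective length offsets (1.17 and 0.44), in libraries numbered below 100 alone and on the TPM scale, where Onecut1 stood at 0.48 and Foxa3 at 0.05. That of Foxa3 was lost with length and GC trends taken out as well (0.56).

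Markers of the cell types of liver moved unevenly beside these values. The hepatocyte markers, of which 11 of 12 were tested, summed to 124931 to 183755 CPM in transplant livers and 98084 to 180556 CPM in empty scaffold livers, with a median log2 fold change of 0.31, and Serpina1c, a hepatic protease inhibitor, was the 1 called (0.68 ± 0.18, adjusted p = 0.0353, edgeR's quasi-likelihood test). None of the 11 was at 0, and Tf was not analysed here. The Serpina1c call was lost in 7 of 14 fits that each left out 1 library (transplant replicates 1, 3, 5 and 6, empty scaffold replicates 3, 4 and 8), at 0.61 to 0.69. It was also lost with effective length offsets (0.66), with length and GC trends taken out (0.58), in libraries numbered below 100 alone and on the TPM scale (0.31). Markers of Kupffer cells and macrophages summed to 159 to 241 CPM in transplant livers and 203 to 480 CPM in empty scaffold livers. Of 12 tested, 5 were lower and 0 higher by edgeR's quasi-likelihood test, with a median of -0.65, among them Csf1r (-1.02 ± 0.19) and Cd68 (-1.14 ± 0.22). The count was 3 without any one of transplant replicates 1, 2, 3, 5 and 6 or empty scaffold replicates 2, 3, 4, 5 and 8. In libraries numbered below 100 alone Csf1r stood at -0.83 and Cd68 at -1.11, and neither was called. Stellate cell markers summed to 156 to 283 CPM in transplant livers and 189 to 428 CPM in empty scaffold livers, with 4 of 12 lower, 0 higher and a median of -0.65. The stellate count was 0 without transplant replicate 3 or 5 or empty scaffold replicate 4 or 8, 1 without transplant replicate 1 or empty scaffold replicate 3, 2 without transplant replicate 2 or empty scaffold replicate 1 or 2, and 7 without empty scaffold replicate 5. With length and GC trends taken out it was 0. Among them Col3a1 stood at -1.29 ± 0.31, at -0.61 in libraries numbered below 100 and -2.10 in the rest. Its call was lost without transplant replicates 1, 3 or 5 or empty scaffold replicates 4 or 8 (-1.27 to -1.17), without a filter, with effective length offsets (-1.04) and with length and GC trends taken out (-1.07). Sinusoidal endothelial markers summed to 117 to 180.1 CPM in transplant livers and 149 to 253 CPM in empty scaffold livers, with 2 of 12 lower, 0 higher and a median of -0.38, Stab2 at -0.51 ± 0.09 and Cdh5 at -0.67 ± 0.15. Without transplant replicate 1 the count was 1, and without empty scaffold replicate 5 it was 5. With length and GC trends taken out it was 0, with Stab2 at -0.23 and Cdh5 at -0.42. Cdh5 was -0.31 and not called in libraries numbered below 100, and -1.09 in the rest. Of 6 tested cholangiocyte markers 0 were called (0 at an unadjusted p under 0.05 by edgeR, 0 by DESeq2, 2 on the TPM scale, 1 in libraries numbered 100 or above), with sums of 40.5 to 86.4 CPM in transplant livers and 43.2 to 88.5 CPM in empty scaffold livers. The part of these markers in the carboxylesterase values was not tested.

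Tissues that also express carboxylesterases were checked by their markers. Of 10 adipocyte markers 5 were tested, and 1, Pparg, was lower (-0.46 ± 0.11, adjusted p = 0.0240, edgeR's quasi-likelihood test). Which cells held the Pparg message was not tested. Adipoq, Plin1, Lep, Retn and Ucp1 were too low to test, and the sums were 39.1 to 115.3 CPM in transplant livers and 51.4 to 146 CPM in empty scaffold livers. Of 8 enterocyte markers 1 was tested and 0 were called (1 at an unadjusted p under 0.05 by edgeR, 0 by DESeq2, 1 in libraries numbered 100 or above and 1 once the number range entered the model), and Sis and Reg3b were at 0 in all libraries. The enterocyte sums, 148 to 278 CPM in transplant livers and 98.9 to 237 CPM in empty scaffold livers, include genes that liver expresses, and their part in the values of the members was not tested.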

How the data were processed

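RNA of 14 mouse liver samples was sequenced. Per the labels' protocols, samples with a RIN above 7 gave 200 ng of total RNA to stranded libraries. The submitters' processing notes name fastp 0.20, kallisto 0.46.1, DESeq2 1.38 and the build GRCm39, with no role or order. Options of kallisto and the annotation it used are not stated. Each deposited table gives, per the file headers, the estimated count and TPM of every transcript beside its length and effective length. Estimated counts were deposited without normalization and need not be whole. Deposited TPM are scaled to 1 total per library, so they hold no depth. Effective lengths from the deposited tables served only for an alternative offset.

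Transcripts were matched by identifier to GENCODE M21 (93.7% of 128803 transcripts, 99.4% to 99.5% of each library's counts), an annotation of GRCm38 used here for names and gene membership, so no coordinates are given except those of the RefSeq promoter table. Estimated counts were summed per gene and rounded to whole numbers. Genes were kept by filterByExpr, libraries scaled by TMM, and groups compared with edgeR 4.0.16 (quasi-likelihood F test, robust, two-sided, R 4.3.3), adjusted by Benjamini-Hochberg over 13131 genes; calls were made at an adjusted p under 0.05. The script was tested on simulated data. Alternatives were DESeq2 1.42.0, RLE factors, no filter, the number range as a covariate or each range alone, effective length offsets, splines on length and GC content with 4 degrees of freedom, limma 3.58.1 on log2(TPM + 1), and leaving out each library. Replicate numbers follow accession order and pair no samples. The members, the gene lists and the tests were chosen with earlier results of these data known. The permutation tests of correlations between members were added after the data had been seen. All members are named; of each list up to 4 called genes with the smallest adjusted p may be, of which those given here are a part, and other carboxylesterases, which include all called ones, are named whatever their result.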

Additional observations from a re-analysis of the deposited data

Results flagged for a closer look

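Of 58 groups of libraries examined for a library far from the others, 3 held one; chance alone marks about 1 group in 20. Ces1d stood at 753 CPM in empty scaffold library 1, where the next highest empty scaffold library had 558 CPM and the lowest 395 CPM. The same library had the highest Ces1f among the empty scaffold livers, at 487 CPM, with 411 CPM next and 346 CPM lowest. Without it the log2 fold changes were 0.47 for Ces1d and 0.25 for Ces1f. The stellate cell gene Col3a1 stood at 87.1 CPM in empty scaffold library 3, with 50.3 CPM next and 22.3 CPM lowest.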

How the results depend on the processing

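The number of genes called moved with the processing, from 990 (435 higher, 555 lower) to 1965 with DESeq2 (1032 higher, 933 lower), 2576 with the number range as a covariate (1384 and 1192), 3 in libraries numbered below 100, 3487 in those of 100 or above (1950 and 1537), 385 with effective length offsets (110 and 275), 625 with length and GC trends removed (366 and 259), and 2217 on log2(TPM + 1) with limma (30 and 2187). It was 936 with RLE factors and 670 without a filter on low counts. Leaving out 1 library gave 138 to 1910. Counts were lower than the full one by a factor above 1.5 without transplant replicates 1 (138), 3 (406) and 5 (200). The same held without empty scaffold replicates 1 (646), 2 (512), 3 (263), 4 (240) and 8 (296). Counts were higher by such a factor without empty scaffold replicates 5 (1565) and 7 (1910). Of the 10 carboxylesterases, 2 were called, against 0 in libraries numbered below 100, 1 in those of 100 or above, 1 with effective length offsets, 1 on the TPM scale and 1 to 3 without 1 library. The contrast between number ranges called 3075 genes, 1669 with length and GC trends removed (chosen after seeing the data), 3046 with RLE factors and 2086 to 4617 without 1 library. The test for a difference of effects called 0 genes, and 0 to 7 without 1 library. Summing reads of genes that share sequence was also chosen after seeing the data. Of the genes named in the text, none among the 990 called ones changed sign in these settings. Members outside those calls did. Ces1c, Ces1d, Ces1e, Ces1f, Ces2c, Ces2e and Ces3a went from above 0 to below 0 on the TPM scale, where the median of all genes was -0.30. Further changes of sign are not listed here. The cause of these movements was not tested. No paired analysis was possible because the title numbers are not shared between the groups. Reads from sequence shared between the copies limit the values of Ces3a and Ces3b.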
